A study of Mus musculus with 12 samples.

Results

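The genes described are 10 rows of a table of 23420 gene symbols, chosen by symbol: S100a4, S100a6, S100a10, S100a11, Anxa1, Anxa2, Anxa3, Anxa4, Anxa5 and Lgals3. S100 proteins are small calcium-binding proteins that carry EF-hand domains, act as pairs and change shape when calcium enters a cell, after which they bind other proteins. Annexins are a separate family that binds membrane lipids in a calcium-dependent way and takes part in membrane repair, vesicle traffic and the recognition of dying cells. Several S100 proteins dock onto the ends of annexins, and Lgals3 encodes galectin-3, a sugar-binding protein long used as a macrophage surface marker under the name Mac-2. In myeloid cells these genes are commonly abundant, and many of them are also expressed in keratinocytes and other cells.

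RNA came from cells of mouse epidermis with the sorting phenotype CD45+CD3-CD11b+MHCII+, which takes in Langerhans cells, the resident dendritic-like cells that present antigen in the skin, as well as other myeloid cells. The groups were Cbfβ2 knockout (KO) mice at day 5 after birth (P5 KO), wild-type mice at that age (P5 wt), Cbfβ2 KO mice at 1.5 months (1.5M KO) and wild-type mice at 1.5 months (1.5M wt), with 3 library preparations each and 100 sorted cells per tube. Cbfβ2 is a splice form of core-binding factor beta, the partner subunit of the Runx transcription factors. The strain, the sex and the number of animals behind a tube were not given, so p-values measure the spread between library preparations, which may be technical. Because each tube holds many cells, fewer cells of a type and less RNA per cell cannot be told apart.

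Values are scaled molecule counts, in which each library has the same total. Each P5 KO library held 30913 to 51001 molecules, with 34192 to 52208 in P5 wt, 74620 to 77420 in 1.5M KO and 40254 to 51848 in 1.5M wt, so 1.5M KO values carry the smallest counting error. Cbfb itself read 3.63, 1.45 and 2.40 in P5 KO against 4.97, 4.34 and 3.91 in P5 wt, and 1.92, 0.994 and 2.40 in 1.5M KO against 13.8, 7.15 and 10.7 in 1.5M wt. It was lower in all KO libraries of either age, with a limma adjusted p of 0.49 at P5 and 0.00132 at 1.5M. These values count RNA of every Cbfb splice form that shares its 3′ end. The 4 Y-linked genes checked summed to 2.73, 2.18 and 8.40 in P5 KO and to 0 in every P5 wt library, and to 0.958 to 1.60 in 1.5M KO and 2.76 to 4.79 in 1.5M wt. Xist, the other sex-linked gene checked, read 9.08, 10.9 and 13.2 in P5 KO and 36.9, 21.7 and 16.6 in P5 wt. At 1.5 months it read 7.19, 5.97 and 9.58 in KO and 6.45, 9.30 and 13.3 in wt. At P5 an effect of genotype and an effect of sex therefore cannot be told apart. Between 1.5M wt and P5 wt an effect of age and an effect of sex cannot be told apart either. The difference between the knockout effects uses both P5 groups and carries the same limit.

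The sort was checked against marker genes. The 9 Langerhans cell genes summed to 571 to 724 in P5 KO and 943 to 1070 in P5 wt, and to 1242 to 1500 in 1.5M KO and 2516 to 2736 in 1.5M wt. These sums hide unequal changes. In 1.5M KO against 1.5M wt, 8 of the 9 were called lower and 0 higher (limma), against 2.04% and 3.24% of all genes. The log2 change was -0.63 for Cd74 and -1.16 for H2-Ab1, but -3.08 for Epcam and -5.48 for Cldn1. Cd207, which encodes the defining Langerhans cell lectin langerin, was at 0 in the 3 P5 KO libraries and at 0.710 to 2.93 in P5 wt, and reached 18.7 to 24.9 in 1.5M KO and 189 to 252 in 1.5M wt. The macrophage and monocyte genes, 14 of 15 in the table, summed to 211 to 267 in P5 KO and 154 to 194 in P5 wt, and to 539 to 620 in 1.5M KO and 74.4 to 92.8 in 1.5M wt. The cells are therefore called by their sort and group, with no finer cell type name.

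**Figure D1:**
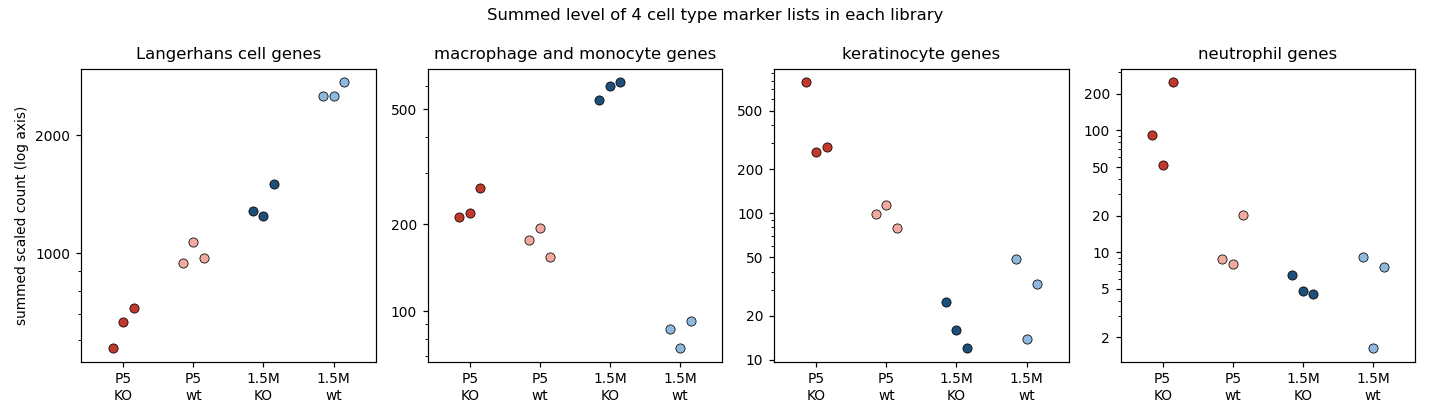
Summed scaled count (log axis) of 4 cell type marker lists in each library (points), by group. Langerhans cell genes were highest in 1.5M wt, macrophage and monocyte genes in 1.5M KO at 539 to 620, and keratinocyte and neutrophil genes in P5 KO at 260 to 789 and 51.9 to 250.

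Genes of other cell types set P5 KO apart. Keratinocyte genes, 19 of 20 detected in each P5 group, summed to 260 to 789 in P5 KO and 79.1 to 113 in P5 wt, with Krt77 at 0 in both. Neutrophil genes, 9 of 11 in the table detected in P5 KO and 4 of 11 in P5 wt, summed to 51.9 to 250 in P5 KO and 7.95 to 20.03 in P5 wt; Mpo and Elane were at 0 in both, and Camp, Ltf, Ngp, Mmp8 and Retnlg were at 0 in P5 wt alone. Erythroid genes summed to 0.792 to 267 in P5 KO and 0 to 2.84 in P5 wt. At 1.5 months keratinocyte genes summed to 11.98 to 24.9 in KO and 13.95 to 48.8 in wt, neutrophil genes to 4.53 to 6.45 in KO and 1.62 to 9.18 in wt, and erythroid genes to 0 in all 6 libraries. Summed over the lists of other cell types, the values were 1096, 585 and 539 in P5 KO against 117, 132 and 101 in P5 wt, a difference at the smallest p that 3 against 3 libraries allow (0.1, exact permutation test, two-sided). Every P5 KO value below stands beside this, and the part of these genes in the P5 results was not tested.

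All 10 genes passed the filter on low values, which asked for a value above 0 in at least 3 of the 12 libraries, and all were tested among 10023 genes with limma on log2(scaled count + 1), with two-sided adjusted p under 0.05 as the threshold. Fold changes are on that scale, which understates changes of low genes. At P5, 2 of the 10 genes were higher in KO than in wt, against 1.15% of all genes, and 0 were lower, against 0.649% (limma; 6 of the 10 had an unadjusted p under 0.05). Anxa3 is among these 6, and it passed the filter only through KO libraries. At 1.5 months 3 were higher and 1 lower in KO, against 3.24% and 2.04% of all genes. Between ages, 5 were higher in 1.5M wt than in P5 wt, against 2.36%, and 2 were higher in 1.5M KO than in P5 KO, against 1.72%, with 0 lower in either genotype, against 2.84% and 1.43%. The knockout effect was higher at 1.5 months than at P5 for 1 of the 10, against 1.32% of all genes, and lower for 1, against 0.678%. With a library left out, the 2 calls at P5 became 0 without P5 KO library 2 or P5 wt library 3 and 1 without P5 KO library 1 or 3 or P5 wt library 2, and the 4 at 1.5 months became 2 without 1.5M wt library 1. The 2 calls between KO ages became 1 without any of these 6 libraries but P5 KO library 2, and the 2 of the difference became 1 without P5 wt library 3, 1.5M KO library 2 or 1.5M wt library 1.

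The median log2 fold change of the 10 genes was 0.66 for P5 KO against P5 wt beside -0.01 over all genes tested, and 0.26 for 1.5M KO against 1.5M wt beside 0.09. For 1.5M wt against P5 wt it was 0.92 beside -0.22, and for 1.5M KO against P5 KO 0.31 beside -0.06. Libraries of the KO and wt groups did not overlap, with KO higher, for 4 of the 10 genes at P5 (6.23% of all genes) and for 4 at 1.5 months (13.9%). Anxa3 is among the 4 at either age. It was above 0 in KO libraries alone and passed the filter on low values only through them, so it is no support for a difference. KO and wt libraries did not overlap, with KO lower, for 0 genes at P5 (6.02%) and 1 at 1.5 months (7.18%). Between ages, 1.5M wt lay wholly above P5 wt for 6 genes (6.06%) and wholly below it for 1 (13.2%), and 1.5M KO lay wholly above P5 KO for 4 (8.15%) and wholly below it for 1 (10%).

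**Figure D2:**
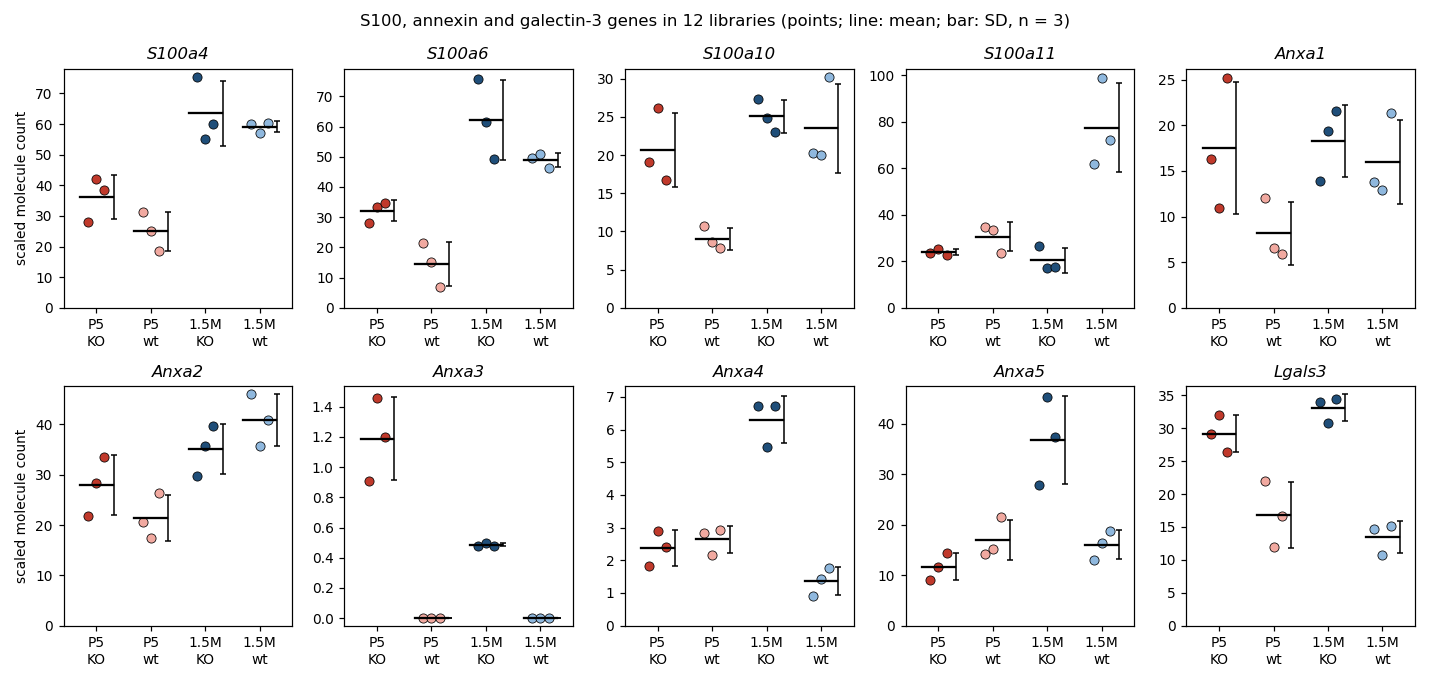
Scaled molecule counts of the 10 genes in each of the 12 libraries (points), with the group mean (line) and SD (bar), n = 3 per group. S100a4, S100a6 and S100a10 were lowest in P5 wt, S100a11 was high in 1.5M wt alone, at 61.7 to 98.7, and Anxa4, Anxa5 and Lgals3 were highest in 1.5M KO.

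S100a4, S100a6 and S100a10 shared a pattern: lowest in P5 wt, higher in P5 KO, and high in both genotypes at 1.5 months. S100a4, known as metastasin or fibroblast-specific protein and a binder of non-muscle myosin, lies at chr3:90603771-90606045 on the plus strand of GRCm38 (GENCODE M21). It read 28.2, 42.2 and 38.4 in P5 KO against 31.3, 24.95 and 18.6 in P5 wt, and 75.3, 55.2 and 59.9 in 1.5M KO against 59.9, 57.2 and 60.4 in 1.5M wt. The KO and wt libraries overlapped at either age, and neither difference passed (log2 0.53 ± 0.21 SE, limma adjusted p = 0.276 at P5; 0.09 ± 0.21, 0.931 at 1.5 months). The 1.5M libraries lay above the P5 libraries in either genotype. S100a4 rose by 1.24 ± 0.21 in 1.5M wt over P5 wt (limma adjusted p = 0.000536) and by 0.80 ± 0.21 in 1.5M KO over P5 KO (0.0367). The rise in KO passed in 7 of 16 other settings, with limma adjusted p from 0.0136 to 0.243, and was lost, among other settings, when P5 KO library 1 (0.179) or 3 (0.0651) or any 1.5M KO library (0.181, 0.0595 and 0.0943 for libraries 1, 2 and 3) was left out. An annotated coding gene, Gm42674, overlaps S100a4 on the same strand and has no row in the table, so reads of the pair cannot be told apart.

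S100a6, or calcyclin, binds the ubiquitin-ligase adaptor encoded by Cacybp and lies at chr3:90612882-90624181 on the plus strand. It read 28.2, 33.5 and 34.8 in P5 KO against 21.3, 15.2 and 6.84 in P5 wt, so that every KO library was above every wt library. At 1.5 months it read 75.8, 61.6 and 49.3 in KO against 49.8, 50.8 and 46.2 in wt, and these overlapped. The P5 difference passed, at 32.1 ± 3.51 in KO against 14.4 ± 7.27 in wt (SD, n = 3; log2 1.22 ± 0.28 SE, limma adjusted p = 0.0225), and the 1.5M difference did not (0.32 ± 0.28, 0.7). S100a6 rose by 1.82 ± 0.28 in 1.5M wt over P5 wt (limma adjusted p = 0.000151), the largest rise with age among the 10 genes in wt. The 1.5M KO libraries were also above the P5 KO libraries, at 0.92 ± 0.28, without passing (limma adjusted p = 0.0729).

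S100a10, also called p11, has lost the ability to bind calcium and joins a pair of annexin A2 molecules into a complex that holds plasminogen activators at the cell surface. It lies at chr3:93555080-93564643, plus strand. It read 19.1, 26.2 and 16.8 in P5 KO against 10.7, 8.68 and 7.81 in P5 wt, with no overlap. At 1.5 months it read 27.3, 24.9 and 23.0 in KO against 20.3, 20.03 and 30.2 in wt. S100a10 was thus higher in KO at P5, at 20.7 ± 4.90 against 9.05 ± 1.46 in wt (SD, n = 3; log2 1.10 ± 0.25 SE, limma adjusted p = 0.0246), with no called difference at 1.5 months (0.11 ± 0.25, 0.924). Between ages it rose in wt (1.27 ± 0.25, limma adjusted p = 0.00276), while 1.5M KO and P5 KO overlapped (0.29 ± 0.25, 0.706).

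The P5 calls of S100a6 and S100a10 rest on few molecules, 106 and 71 over the 3 P5 KO libraries and 51 and 31 over the 3 P5 wt libraries. S100a6 passed in 10 of 16 other settings (limma adjusted p from 0.0045 to 0.354) and S100a10 in 9 of 16 (0.0087 to 0.17). S100a6 was lost without P5 KO library 2 (0.0733) or 3 (0.0859) or P5 wt library 3 (0.119), and S100a10 without P5 KO library 1 (0.0597) or 2 (0.106) or P5 wt library 2 (0.0746) or 3 (0.104). Their direction was kept in all of these settings. Whether the knockout effect on them differed between the ages could not be called, at -0.90 ± 0.39 for S100a6 (limma adjusted p = 0.312) and -0.99 ± 0.36 for S100a10 (0.186). By contrast, the rises of S100a4, S100a6 and S100a10 in 1.5M wt over P5 wt passed in all 16 other settings, none of which separates age from sex.

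S100a11 behaved differently from its S100 relatives. S100a11 protein, or calgizzarin, docks onto annexin A1, and the gene lies at chr3:93520488-93526287, plus strand, next to S100a10. It read 23.6, 25.5 and 22.8 in P5 KO against 34.8, 33.6 and 23.4 in P5 wt, which overlap. At 1.5 months it read 26.4, 16.9 and 17.7 in KO against 61.7, 98.7 and 72.0 in wt, so that the lowest wt library was above every KO library. S100a11 was lower in 1.5M KO, at 20.3 ± 5.25, than in 1.5M wt, at 77.5 ± 19.1 (SD, n = 3; log2 -1.88 ± 0.23 SE, limma adjusted p = 6.46e-06), and passed in all 16 other settings (3.83e-07 to 0.00252). The P5 difference was -0.32 ± 0.23 (limma adjusted p = 0.624), and the difference between the knockout effects, 1.5M minus P5, was -1.56 ± 0.33 (0.00919; lost with no trend, at 0.118). Between ages S100a11 rose by 1.304 ± 0.23 in wt (limma adjusted p = 0.000849; called in all 16 other settings) and read -0.25 ± 0.23 in KO (0.719). A processed pseudogene, S100a11-ps, is annotated and has no row in the table, so a share of its reads in S100a11 was not tested.

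Promoter windows were looked up for these genes because the knockout removes a form of the Runx partner subunit. RefSeq windows (GRCm38.p6, 250 bases before to 50 after the start) were at hand for 8 of the 10 genes, in 9 windows, and not for S100a10 and Anxa3. They were searched on both strands for the Runx core TGTGGT, held by 16.8% of 32851 promoters, the AP-1 core TGANTCA (7.8%) and the PU.1 core GAGGAA (28.3%), whose letters do not overlap each other in these windows. TGTGGT was found for 1 of the 8 genes, TGANTCA for 2 and GAGGAA for 3. The 250 bases before the start are shown for S100a6, which held 3 Runx matches, for its neighbour S100a4, which had a like pattern of levels and held none, for S100a11, which held 2 AP-1 matches, and for Anxa2, which held 1. All are on the plus strand, 5′ to 3′, with Runx, AP-1 and PU.1 matches in capitals; ACCACA is the Runx core read on the other strand.
S100a6 (chr3:90612644-90612893): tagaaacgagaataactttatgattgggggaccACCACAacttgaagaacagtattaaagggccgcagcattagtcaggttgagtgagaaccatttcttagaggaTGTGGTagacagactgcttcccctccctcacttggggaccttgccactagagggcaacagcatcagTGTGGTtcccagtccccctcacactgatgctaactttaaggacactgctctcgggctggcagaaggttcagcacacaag
S100a4 (chr3:90603520-90603769): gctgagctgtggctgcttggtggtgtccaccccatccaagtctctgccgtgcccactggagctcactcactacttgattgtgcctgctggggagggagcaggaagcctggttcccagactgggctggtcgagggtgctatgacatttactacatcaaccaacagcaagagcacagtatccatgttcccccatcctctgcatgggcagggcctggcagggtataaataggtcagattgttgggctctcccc
S100a11 (chr3:93520246-93520495): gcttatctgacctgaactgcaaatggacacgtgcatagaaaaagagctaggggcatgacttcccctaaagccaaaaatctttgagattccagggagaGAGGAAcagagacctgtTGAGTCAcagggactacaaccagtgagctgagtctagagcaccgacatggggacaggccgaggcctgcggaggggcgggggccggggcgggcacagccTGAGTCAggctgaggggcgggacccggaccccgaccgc
Anxa2 (chr9:69453433-69453682): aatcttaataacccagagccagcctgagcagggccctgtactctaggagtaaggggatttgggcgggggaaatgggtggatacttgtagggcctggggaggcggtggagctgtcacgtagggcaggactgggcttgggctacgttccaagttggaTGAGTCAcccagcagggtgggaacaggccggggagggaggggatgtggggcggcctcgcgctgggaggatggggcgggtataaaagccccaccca
The Runx matches before S100a6 begin at -217, -145 and -79 from the start, and 3 or more matches were held by 0.18% of all promoters. The AP-1 matches before S100a11 begin at -136 and -38, and 2 or more were held by 0.46% of all promoters. A PU.1 match lies at -153. The cutoffs of 3 and 2 equal the counts found in these windows, so these shares do not measure how unusual the windows are. The AP-1 match of Anxa2 begins at -95. S100a4 held a PU.1 match after the start, at 20, and Anxa1 held 1 at -227, while the windows of Anxa4, Anxa5 and Lgals3 held none of the 3 motifs. A match of letters is a description of the sequence, and binding was not measured.

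The 2 annexins that pair with S100 proteins were measured beside them. Anxa1 (chr19:20373428-20390944, minus strand) encodes annexin A1, a glucocorticoid-induced protein that acts through formyl peptide receptors and binds S100a11. It read 16.3, 10.9 and 25.2 in P5 KO against 12.1, 6.51 and 5.86 in P5 wt, and 13.9, 19.4 and 21.6 in 1.5M KO against 13.8, 12.9 and 21.3 in 1.5M wt. P5 wt was the lowest group, and the KO and wt libraries overlapped at either age. No comparison of Anxa1 passed, with log2 1.002 ± 0.32 at P5 (limma adjusted p = 0.14), 0.19 ± 0.32 at 1.5 months (0.881) and 0.92 ± 0.32 for 1.5M wt over P5 wt (0.108).

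Anxa2 (chr9:69453620-69491795, plus strand) encodes annexin A2, the partner of S100a10. It read 21.8, 28.4 and 33.6 in P5 KO against 20.6, 17.4 and 26.4 in P5 wt, and 29.7, 35.8 and 39.8 in 1.5M KO against 46.1, 35.8 and 40.9 in 1.5M wt. KO and wt overlapped at either age, with log2 0.36 ± 0.22 at P5 (limma adjusted p = 0.537) and -0.22 ± 0.22 at 1.5 months (0.762). The 1.5M wt libraries were above the P5 wt libraries, and Anxa2 rose by 0.91 ± 0.22 (limma adjusted p = 0.0163). That call held in 9 of 16 other settings (0.00252 to 0.149) and was lost without P5 wt library 1 (0.0526) or 2 (0.078) or 1.5M wt library 1 (0.075) or 3 (0.0516). An antisense gene, Gm16144, overlaps Anxa2 and has no row in the table, and 1500015L24Rik on the strand opposite Anxa1 was listed at 0 in all 12 libraries.

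Within a library, the log2 ratio of S100a10 to Anxa2 does not depend on the scaling. It was -0.19, -0.11 and -1 in P5 KO against -0.95, -1 and -1.75 in P5 wt, and -0.12, -0.53 and -0.79 in 1.5M KO against -1.18, -0.84 and -0.44 in 1.5M wt. KO and wt overlapped at either age. The mean difference was 0.80 at P5 (exact permutation p = 0.3, two-sided, n = 3 each) and 0.34 at 1.5 months (0.4), where the smallest p possible is 0.1. With a library left out, the difference was 0.54 to 1.081 at P5 (lowest without P5 wt library 3) and 0.157 to 0.531 at 1.5 months, where it was 0.161 without 1.5M KO library 1, 0.157 without 1.5M wt library 1 and 0.531 without 1.5M wt library 3. Ahnak, a giant scaffold protein that binds the annexin A2 and S100a10 complex, read 51.8, 42.2 and 56.4 in P5 KO against 41.2, 20.6 and 36.1 in P5 wt, and 74.8, 66.6 and 58.0 in 1.5M KO against 48.8, 60.8 and 49.8 in 1.5M wt, and passed in none of the 5 comparisons.

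Anxa5 and Anxa4 were high in 1.5M KO. Annexin A5 binds phosphatidylserine exposed on dying cells and vesicles, and its gene lies at chr3:36448923-36475894, minus strand. It read 27.8, 45.2 and 37.4 in 1.5M KO against 12.9, 16.5 and 18.7 in 1.5M wt, and 9.08, 11.6 and 14.4 in P5 KO against 14.2, 15.2 and 21.5 in P5 wt. All 1.5M KO libraries were above the libraries of the other groups, while at P5 the KO libraries were, with slight overlap, below wt. Anxa5 rose in 1.5M KO to 36.8 ± 8.72, against 16.004 ± 2.91 in 1.5M wt (SD, n = 3; log2 1.14 ± 0.26 SE, limma adjusted p = 0.00873), and by 1.57 ± 0.26 over P5 KO (0.000745; called in all 16 other settings). At P5 the difference was -0.50 ± 0.26 (limma adjusted p = 0.448). The knockout effects at the ages differed by 1.64 ± 0.37 (1.5M minus P5; limma adjusted p = 0.0175). In wt it averaged 16.004 ± 2.91 at 1.5 months and 17.0 ± 3.95 at P5 (log2 -0.07 ± 0.26, limma adjusted p = 0.944), a difference whose sign turned under median-of-ratios scaling (0.14). The difference between the knockout effects was lost without P5 wt library 3 (limma adjusted p = 0.0599), 1.5M KO library 2 (0.0733) or 1.5M wt library 1 (0.0511), and was called in 16 of 21 other settings.

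Anxa4 (chr6:86736840-86793584, minus strand) encodes an annexin first known from epithelial membranes. It was low: 6.71, 5.47 and 6.71 in 1.5M KO against 0.921, 1.43 and 1.78 in 1.5M wt, and 1.82, 2.91 and 2.40 in P5 KO against 2.84, 2.17 and 2.93 in P5 wt. These are 39 molecules in 1.5M KO and 5 in 1.5M wt, and every KO library was above every wt library. Anxa4 was higher by 1.63 ± 0.38 in 1.5M KO than in 1.5M wt (limma adjusted p = 0.00973), and the difference between the knockout effects, 1.75 ± 0.54, did not pass (0.106). The 1.5M KO libraries were also above the P5 KO libraries, at 1.12 ± 0.38 (limma adjusted p = 0.132).

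The 1.5M calls of Anxa4 and Anxa5 held in 12 of 16 other settings each, with the direction kept in all. Anxa4 was lost without 1.5M KO library 1 (limma adjusted p = 0.0641) or 3 (0.0689) or 1.5M wt library 1 (0.0516), and Anxa5 without 1.5M KO library 2 (0.0841) or 1.5M wt library 1 (0.0534). Thinning all libraries to the depth of the shallowest also ended both calls, at log2 1.13 for Anxa4 (limma adjusted p = 0.358) and 0.84 for Anxa5 (0.237).

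Anxa3 (chr5:96793339-96845966, plus strand), an annexin abundant in neutrophils, was close to the detection limit. It read 0.908, 1.45 and 1.20 in P5 KO, 4 molecules in all, and was at 0 in the 3 P5 wt libraries. It read 0.480, 0.497 and 0.479 in 1.5M KO, 3 molecules in all, and was at 0 in the 3 1.5M wt libraries. A count of 0 over a group allows up to 3 molecules, counting error only. That limit is 0.895 scaled counts in P5 wt and 0.831 in 1.5M wt. The P5 KO mean of Anxa3 was 1.33 times the P5 wt limit. The counting error of its 4 molecules is not in that ratio, so it is no lower bound. At 1.5 months no fold can be given. Each KO library held at least 1 molecule and no wt library did, and neither age passed (limma adjusted p = 0.0722 at P5 and 0.433 at 1.5 months). Anxa3 passed the filter on low values only through the KO libraries, so this separation is no support for a difference. The fitted changes depend on the pseudocount and are no bound.

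Lgals3 (chr14:47367751-47386160, plus strand) was higher in KO. It read 34.05, 30.8 and 34.5 in 1.5M KO against 14.7, 10.7 and 15.1 in 1.5M wt, and 29.1, 32 and 26.4 in P5 KO against 22.0, 11.9 and 16.6 in P5 wt. The KO libraries were above the wt libraries at both ages. Lgals3 was higher in 1.5M KO, at 33.1 ± 2.01, than in 1.5M wt, at 13.5 ± 2.43 (SD, n = 3; log2 1.25 ± 0.24 SE, limma adjusted p = 0.00183), and passed in all 16 other settings (0.000477 to 0.0323). At P5 the difference was 0.79 ± 0.24 and did not pass (limma adjusted p = 0.112), nor did the difference between the ages' knockout effects, 0.45 ± 0.34 (0.64). Neither genotype changed with age past the threshold, at 0.18 ± 0.24 in KO (limma adjusted p = 0.835) and -0.27 ± 0.24 in wt (0.61).

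**Figure D3:**
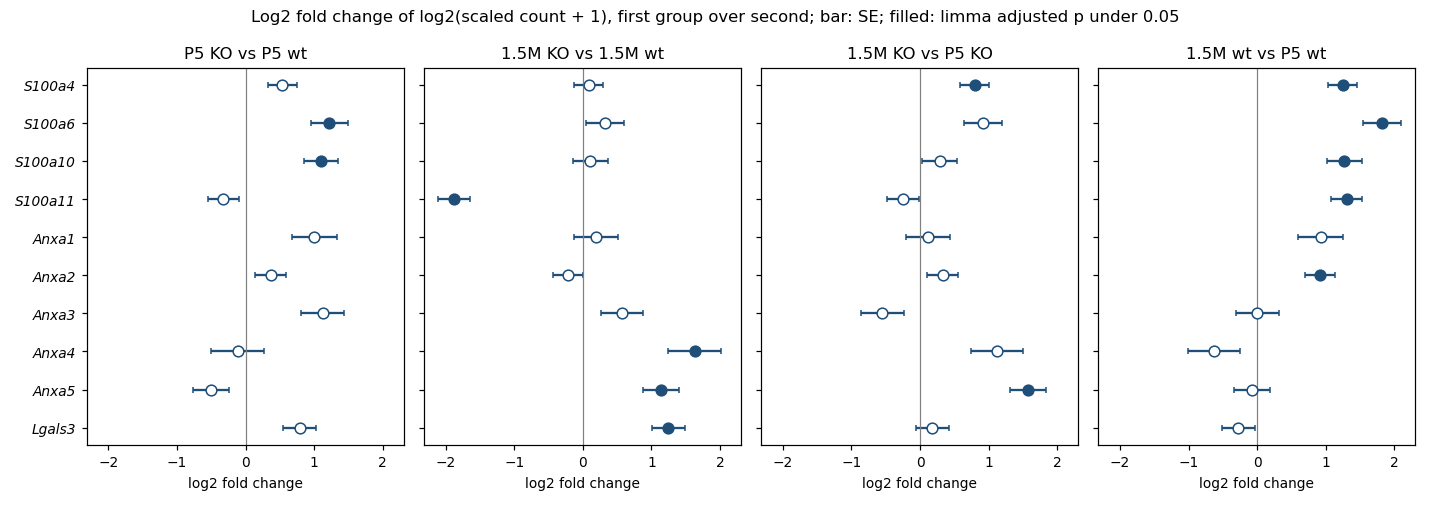
Log2 fold change of log2(scaled count + 1) for the 10 genes (points), with its SE (bars), in 4 comparisons, first group over second; filled points passed a limma adjusted p of 0.05. S100a11 was the called gene on the lower side for 1.5M KO against 1.5M wt, at -1.88, and the 4 S100 genes were all higher in 1.5M wt than in P5 wt.

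Other genes of the families were few in these libraries. Of 13 other S100 genes, 6 were tested, and S100a2, S100a5, S100a7a, S100b, S100g and S100z were at 0 in all 12 libraries. S100a8 and S100a9 form calprotectin, the main calcium-binding protein of neutrophils and early monocytes. These 2 were called higher in P5 KO than in P5 wt, against 1.15% of all genes. None of the other 4 tested among these 13 was called at P5. S100a8 read 35.4, 26.9 and 94.8 in P5 KO against 0, 0 and 3.91 in P5 wt, a ratio of 39.3 (exact 95% interval 15.03 to 146, counting error only; limma adjusted p = 3.67e-05). S100a9 read 34.5, 16 and 104 in P5 KO against 1.42, 0 and 0 in P5 wt, a ratio of 74.5 (20.3 to 621; limma adjusted p = 3.28e-05). Both were at 0 in all 1.5M libraries, and both are also on the neutrophil list above, so they are the same measurement as part of that list's sum. Both passed the filter on low values only through the P5 KO libraries, so their limma calls are no support for a difference. Among the P5 KO libraries, S100a8 and S100a9 were highest in library 3, as S100a6, Anxa1, Anxa2 and Anxa5 were. S100a4, S100a10, S100a11, Anxa3, Anxa4 and Lgals3 were highest in library 2.

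Of 7 other annexins, 4 were tested and 0 were called in any of the 5 comparisons (limma). Among all genes, 1.15% to 3.24% were called higher and 0.649% to 2.84% lower in these comparisons. Of the 4 annexins, 1 had an unadjusted limma p under 0.05 for P5 KO against P5 wt. Anxa10 and Anxa13 were at 0 in all libraries. Of 8 other galectins, 4 were tested, and Lgals4, Lgals6 and Lgals12 were at 0 in all libraries. Lgals7, a keratinocyte galectin, was lower at 1.5 months in either genotype. It read 0.959, 0.994 and 1.44 in 1.5M KO against 8.17, 5.82 and 7.20 in P5 KO, a ratio of 0.163 (exact 95% interval 0.059 to 0.392; limma adjusted p = 0.0161). It read 0.921, 0 and 0.888 in 1.5M wt against 5.68, 6.51 and 1.95 in P5 wt, a ratio of 0.116 (0.013 to 0.494; limma adjusted p = 0.0183). The call in KO was lost without P5 KO library 1 (0.0775) or 3 (0.0512) or 1.5M KO library 1 (0.0639) or 2 (0.0674), and the call in wt without P5 wt library 1 (0.0815) or 2 (0.0913) or 1.5M wt library 2 (0.0958). Keratinocyte genes were also lower at 1.5 months. Of 19 tested, 15 were called lower in 1.5M KO than in P5 KO, against 1.43% of all genes. In 1.5M wt 4 of 19 were called lower than in P5 wt, against 2.84%. Galectin-1, encoded by Lgals1, was not called in any comparison and read 19.2 to 22.0 in 1.5M KO against 21.3 to 27.9 in 1.5M wt, where Lgals3 differed.

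**Figure D4:**
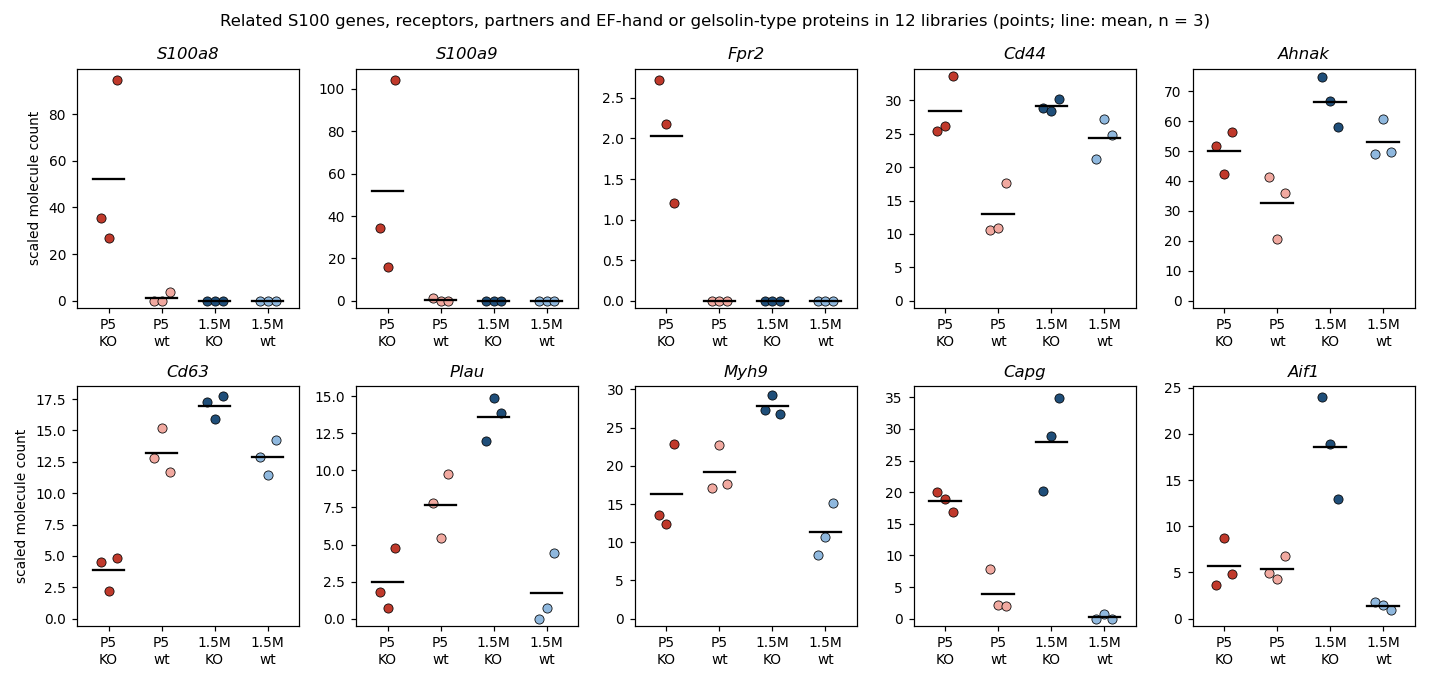
Scaled molecule counts in each library (points) and group means (lines, n = 3) of related S100 genes, receptors, binding partners and calcium-dependent proteins. S100a8, S100a9 and Fpr2 were present in P5 KO and at or near 0 elsewhere, and Plau, Myh9, Capg and Aif1 were highest in 1.5M KO.

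Of receptors and partners of the S100 and annexin proteins, 25 were listed and 21 tested. In P5 KO against P5 wt 2 were called higher and 1 lower, against 1.15% and 0.649% of all genes. In 1.5M KO against 1.5M wt 3 were higher and 0 lower, against 3.24% and 2.04%. Fpr2, a formyl peptide receptor that binds annexin A1, read 2.73, 2.18 and 1.20 in P5 KO. It was at 0 in every other library. Its mean in P5 KO was 2.27 times the limit that a count of 0 allows in P5 wt. The counting error of its 7 molecules is not in that ratio, so it is no lower bound. Fpr2 passed the filter on low values only through the P5 KO libraries. Its calls at P5 (limma adjusted p = 0.00969) and between KO ages are therefore no support for a difference. Cd44, the hyaluronan receptor, read 25.4, 26.2 and 33.6 in P5 KO against 10.7, 10.8 and 17.6 in P5 wt (log2 1.09 ± 0.23 SE, limma adjusted p = 0.0162). Cd63, a tetraspanin of late endosomes, was the called gene on the lower side, at 4.54, 2.18 and 4.80 in P5 KO against 12.8, 15.2 and 11.7 in P5 wt (-1.60 ± 0.29, 0.00435). The call of Cd44 was lost without P5 KO library 3 (0.0765) or P5 wt library 1 (0.0679) or 2 (0.0746), that of Cd63 after thinning (0.0788) and that of Fpr2 with only the 6 P5 libraries in the fit (0.193). Fpr3, Dysf and Trim72 were at 0 in all libraries.

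At 1.5 months the higher partners were Plau, Myh9 and Lgals3bp. Plau, urokinase, which cleaves plasminogen, read 11.99, 14.9 and 13.9 in 1.5M KO against 0, 0.715 and 4.44 in 1.5M wt (log2 2.79 ± 0.51, limma adjusted p = 0.000912). At P5 it read 1.82, 0.727 and 4.80 in KO against 7.82, 5.42 and 9.77 in wt, a difference that did not pass (-1.48 ± 0.51, limma adjusted p = 0.177). The difference between these knockout effects was 4.27 ± 0.72 (limma adjusted p = 0.00109). Myh9, the non-muscle myosin heavy chain that S100a4 binds, read 27.3, 29.3 and 26.8 in 1.5M KO against 8.29, 10.7 and 15.1 in 1.5M wt (1.26 ± 0.27, limma adjusted p = 0.0049), and its knockout effects at the ages differed by 1.52 ± 0.38 (0.038; called in 6 of 21 other settings). The knockout effects of Cd63 differed by 1.98 ± 0.41 (limma adjusted p = 0.00884, called in 20 of 21 other settings). For this difference 3 of the 21 genes tested were called higher and 0 lower, against 1.32% and 0.678% of all genes. Lgals3bp, the secreted galectin-3 binding protein, had 33 molecules in 1.5M KO and 3 in 1.5M wt, a ratio of 6.42 (exact 95% interval 2.01 to 32.7; limma adjusted p = 0.0251). Between ages, 2 of the 21 were called higher and 1 lower in 1.5M KO than in P5 KO, against 1.72% and 1.43% of all genes. Plau (2.26 ± 0.51, limma adjusted p = 0.013) and Cd63 (1.94 ± 0.29, 0.000206) were higher. Fpr2 was the lower one, and as stated above its call is no support for a difference. In 1.5M wt against P5 wt 1 was called higher and 1 lower, against 2.36% and 2.84%. Cd44 was higher (0.89 ± 0.23, limma adjusted p = 0.0266) and Plau lower (-2.01 ± 0.51, 0.0198). The call of Lgals3bp was lost without 1.5M KO library 1 (0.0804) or 3 (0.11) or 1.5M wt library 1 (0.139), and that of Myh9 after thinning (0.0622). Leaving out P5 KO library 2 ended the rise of Plau in KO (0.0807), and its fall in wt ended without P5 wt library 1 or 3 or 1.5M wt library 1 or 2 (0.0707 to 0.116). The rise of Cd44 in wt ended without P5 wt library 1 or 2 or 1.5M wt library 2 or 3 (0.0819 to 0.103), and the difference of Myh9 without any library but P5 KO library 3 or 1.5M wt library 3 (0.0525 to 0.0978).

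Other calcium-dependent proteins, 13 listed and 12 tested, served as a group outside S100. The list also holds proteins without EF-hands, such as Capg, a gelsolin-type actin-capping protein. At P5 1 was called higher in KO and 1 lower, against 1.15% and 0.649% of all genes. At 1.5 months 3 were called higher in KO and 1 lower, against 3.24% and 2.04%. Capg had 173 molecules in 1.5M KO and 1 in 1.5M wt, a ratio of 100.9 (exact 95% interval 17.9 to 4010; limma adjusted p = 4.31e-08), and read 19.98, 18.9 and 16.8 in P5 KO against 7.82, 2.17 and 1.95 in P5 wt (log2 2.16 ± 0.40, limma adjusted p = 0.0047; lost with a pseudocount of 0.1, at 0.143). Aif1, or Iba1, an EF-hand protein of macrophages, read 24.0, 18.9 and 12.9 in 1.5M KO against 1.84, 1.43 and 0.888 in 1.5M wt (3.02 ± 0.37, limma adjusted p = 5.66e-06). Efhd2, or swiprosin-1, read 33.6, 27.3 and 27.8 in 1.5M KO against 12.9, 9.30 and 6.22 in 1.5M wt (1.59 ± 0.28, limma adjusted p = 0.000563). Lcp1, the leukocyte plastin, was lower in P5 KO than in P5 wt (-0.73 ± 0.19, limma adjusted p = 0.048; called in 3 of 16 other settings), and rose with age in KO (1.52 ± 0.19, 1.75e-05) and in wt (0.70 ± 0.19, 0.0291). The rise of Lcp1 in wt was lost without P5 wt library 1 (0.104) or 3 (0.106) or 1.5M wt library 2 (0.112) or 3 (0.116). Leaving out any P5 library ended the P5 call of Lcp1 (0.0628 to 0.221). Capg and Aif1 differed between the ages' knockout effects, by 2.40 ± 0.56 (limma adjusted p = 0.0218; called in 13 of 21 other settings) and 2.996 ± 0.52 (0.00139; called in all 21). The difference of Capg was lost without P5 KO library 2 (0.0504) or 3 (0.0515), P5 wt library 1 (0.0585) or 1.5M KO library 3 (0.0761).

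The genes whose log2 levels over the 12 libraries were most like each gene's were taken from 1197 genes with a mean of at least 5 scaled counts over the libraries. The 12 libraries fall into 4 groups, so these values of Pearson's r mostly measure likeness of the group levels and are given as a description. S100a4 was most like S100a6 (r = 0.953), and S100a6 (0.967) and S100a10 (0.923) were most like Nfkbiz, an inducible regulator of NF-kB targets, which averaged 9.60 in P5 KO, 1.55 in P5 wt, 24.6 in 1.5M KO and 12.4 in 1.5M wt. S100a11 was most like Dennd4a (0.934), Ndufa6 (0.933) and the Langerhans cell list gene Cldn1 (0.888), which averaged 2.99 in P5 KO, 11.95 in P5 wt, 0.320 in 1.5M KO and 56.8 in 1.5M wt. Anxa4 was most like Basp1 (0.945), the complement gene C1qa (0.921) and Aif1 (0.919), and C1qa averaged 19.96 in P5 KO, 30.7 in P5 wt, 113 in 1.5M KO and 5.40 in 1.5M wt.

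Lgals3 was most like 4632428N05Rik (r = 0.944) and Cxcr4 (0.929), a chemokine receptor gene that averaged 13.5 in P5 KO, 3.17 in P5 wt, 39.2 in 1.5M KO and 0 in 1.5M wt. Anxa5 was most like Glud1 (0.895) and the filament gene Vim (0.881), Anxa1 like Jund (0.854), Anxa2 like Arpc3 (0.929) and Anxa3 like the lysozyme gene Lyz2 (0.911). Among the 10 genes, r was 0.861 for S100a4 with S100a10, 0.89 for S100a6 with S100a10 and 0.78 for Anxa4 with Anxa5. S100a11 ran against Lgals3 (-0.79) and Anxa4 (-0.72), and its r with its genomic neighbour S100a10 was 0.103.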

How the data were processed

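The deposited table gives a signal per gene symbol and library. Judged from the numbers, the authors scaled molecule counts to the same total in each library, and 92.6% to 94.9% of values above 0 were whole multiples of a step (tolerance 0.01); all values of the 10 genes were. Per the submitters' processing notes the build was mm10 and the aligner TopHat2; versions, annotation, counting and use of strand are not given in the sources used here. Per the labels' protocols, reverse transcription used a barcoded oligo-dT primer, so values sit near 3′ ends and PCR copies can be counted once, and spike-in RNA was added to each tube; its values were not used here. Because fewer than 95% of values were whole, no count test was run and the test planned for normalized values was used.

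Values were tested as log2(value + 1) for 10023 genes above 0 in at least 3 of 12 libraries, with limma 3.58.1 in R 4.3.3, a mean-variance trend, 4 group means and 5 comparisons. Benjamini-Hochberg adjustment ran over all genes tested. On simulated data of the P5 comparison with 200 genes changed 4-fold among 9968, 172 were recovered and 9 others called. The changed genes were drawn from those with a mean over 10 molecules, and all genes were given the same added spread. The recovery therefore does not cover lower genes or smaller changes. The 10 genes, the family and marker lists and the named genes (all 10, and up to 3 called genes per list, direction and comparison, plus undetected ones) were chosen with earlier results of these data known. No 2 replicates agreed within sampling noise (chi-square over its degrees of freedom was 1.17 to 2.18). Totals of 30913 to 77420 molecules limit precision, most for genes under about 10 molecules. Gene positions are from GENCODE M21 (GRCm38). Alternatives covered the pseudocount, filter, scaling, thinning, trend, block and left-out libraries. Results of some genes on these lists are not reported here.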

Additional observations from a re-analysis of the deposited data

Results flagged for a closer look

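The knockout effect of S100a11 differed between the ages, at -0.32 ± 0.23 (log2, SE) at P5 and -1.88 ± 0.23 at 1.5 months, a difference of -1.56 ± 0.33 (limma adjusted p = 0.00919). All 3 KO libraries were below all 3 wt libraries at 1.5 months. Its adjusted p over 21 other settings was 0.0022 to 0.118, and it was lost with no trend. Langerhans cell genes summed to 1242 to 1500 in 1.5M KO and 2516 to 2736 in 1.5M wt. Of the 9, 8 were called lower in 1.5M KO and 0 higher, from log2 -0.63 for Cd74 to -5.48 for Cldn1. At P5, where the S100a11 difference did not pass, the genes summed to 571 to 724 in KO and 943 to 1070 in wt. There 8 of the 9 were also called lower in KO and 0 higher, against 0.649% and 1.15% of all genes. The part of these genes in this result was not tested.

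The knockout effect of Anxa5 differed between the ages with the opposite sign, at -0.50 ± 0.26 at P5 and 1.14 ± 0.26 at 1.5 months, a difference of 1.64 ± 0.37 (limma adjusted p = 0.0175; 0.00529 to 0.154 over 21 other settings, lost in 5 of them). Macrophage and monocyte genes summed to 539 to 620 in 1.5M KO and 74.4 to 92.8 in 1.5M wt. At P5 they summed to 211 to 267 in KO and 154 to 194 in wt. The part of these genes in this result was not tested.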

How the results depend on the processing

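The 5 calls of the 10 genes for 1.5M wt against P5 wt stayed within 1.5 times of that number under every setting run. At P5 the 2 calls of KO against wt became 1 with a pseudocount of 0.1, 1 with only the 6 libraries compared, 0 after thinning, 0 with no trend and 0 to 2 with a library left out. The 4 calls at 1.5 months became 2 after thinning (1 random draw) and 2 to 4 with a library left out, 2 of them without 1.5M wt library 1. For 1.5M KO against P5 KO the 2 calls became 1 with a pseudocount of 0.1, 4 with 10, 1 after thinning, 1 with no trend and 1 to 2 with a library left out. The 2 calls of the difference became 1 after thinning, 0 with no trend and 1 to 2 with a library left out; a fit on 6 libraries could not be run for it.

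Over all genes, the 180 calls at P5 became 92 with a pseudocount of 0.1, 118 with no filter, 51 after thinning, 80 with no trend and 72 to 123 with a library left out. The 522 calls between wt ages became 286 after thinning and 346 to 389 with a library left out, the 315 between KO ages 175 and 169 to 246. The 200 of the difference became 133 with a pseudocount of 0.1, 334 with a filter on a group mean of 2, and 104 after thinning. Thinning leaves fewer molecules; otherwise the cause was not tested.

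Values turned sign, none of them called, for S100a6 (-0.012) and S100a10 (-0.057) at 1.5 months after thinning, Anxa5 between wt ages with median-of-ratios scaling (0.14) and thinning (0.13), and Anxa1 (-0.044) and Lgals3 (-0.011) between KO ages with quantile normalization. With a library left out, Anxa4 at P5 ranged from -0.231 to 0.006, S100a4 at 1.5 months from -0.041 to 0.18, Anxa5 between wt ages from -0.184 to 0.101, Anxa1 between KO ages from -0.166 to 0.402, and the S100a10 to Anxa2 ratio between KO ages, an alternative chosen after seeing the data, from -0.325 to 0.117. The median over all genes between wt ages was -0.22 as deposited, -0.11 with median-of-ratios scaling and -0.06 with quantile normalization.

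Libraries of one replicate number did not deviate together (correlations from -0.02 to 0.02), so the numbers were not taken as pairs. With the replicate block the calls of the 10 genes were 2, 4, 5, 2 and 2 in the 5 comparisons and those of all genes 147, 508, 504, 315 and 195.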
